A study of Homo sapiens with 20 samples.

Results

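ID1, ID2, ID3, SMAD6, SMAD7, SKIL, IL11, FST and TGFBI are genes that respond to bone morphogenetic proteins (BMPs) or to transforming growth factor beta (TGF-beta). They were read by gene symbol from a table of estimated gene counts, 9 of 36601 genes, and each symbol matched 1 row. A filter on low counts was passed by 8 of them, and SMAD6 did not pass it. The members were chosen by values measured in these data, among them the levels of ID1 and ID3 at 46 °C and of IL11 in replicates 3 and 4, so their own values are given as a description, with no p-value. Members called by the fit over all genes are counted only beside the share of all genes so called, and those counts support nothing.

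The cells were of the established human breast cancer line MDA-MB-231, in 20 samples that form 5 groups of 4. In the 3 laser groups, cells held for 4 h with biomimetic nanoparticles at 0.1 mg/ml were lit for 10 min by an 808 nm laser held at 46, 50 or 54 °C. The nanoparticles-alone group had the same particles and no laser, and untreated cells had neither. RNA of 2 wells was pooled for each sample, and the QuantSeq FWD libraries read the 3′ ends of polyadenylated RNA. Laser light in the absence of particles was not analysed here, so the parts of light and heat, and how they depend on the particles, cannot be told apart. Nanoparticles alone against untreated cells bears on particles in unlit cells only. The time between laser and lysis is not given in the sources used here.

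BMPs bind receptor kinases that phosphorylate SMAD1, SMAD5 and SMAD9, whereas TGF-beta and activins act through SMAD2 and SMAD3, and both sets enter the nucleus with SMAD4. The ID genes are classic BMP targets whose products bind E proteins and other helix-loop-helix factors and keep them from DNA. SMAD6 and SMAD7 are inhibitory SMADs, and SKIL encodes SnoN, a corepressor of SMAD complexes. IL11 encodes a cytokine of the IL-6 family, FST encodes follistatin, which binds activins and some BMPs, and TGFBI encodes a secreted matrix protein. In breast cancer cells TGF-beta signalling is known for its part in invasion and bone metastasis.

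ID1, ID3 and ID2 are the members that differed most between 46 °C and nanoparticles alone, so their promoter windows are shown, from 250 bases before to 50 bases after the RefSeq start on GRCh38.p14. The ID1 window is chr20:31605039-31605338 on the plus strand, that of ID2 is chr2:8681806-8682105 on the plus strand, and that of ID3 is chr1:23559452-23559751 on the minus strand. Each is printed 5′ to 3′ on the strand of its gene, and capitals mark matches to the motifs named after the sequences.
ID1: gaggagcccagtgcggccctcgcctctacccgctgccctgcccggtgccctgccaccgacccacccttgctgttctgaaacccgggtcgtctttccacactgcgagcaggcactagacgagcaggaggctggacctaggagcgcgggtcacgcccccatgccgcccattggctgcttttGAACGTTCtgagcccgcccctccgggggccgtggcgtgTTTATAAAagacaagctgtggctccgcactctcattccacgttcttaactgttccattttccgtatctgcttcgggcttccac
ID2: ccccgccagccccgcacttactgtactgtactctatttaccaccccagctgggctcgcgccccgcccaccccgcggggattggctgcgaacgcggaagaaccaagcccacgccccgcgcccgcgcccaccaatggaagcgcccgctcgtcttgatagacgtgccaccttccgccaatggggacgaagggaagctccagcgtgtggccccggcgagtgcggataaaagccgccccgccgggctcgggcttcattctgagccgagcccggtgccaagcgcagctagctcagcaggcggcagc
ID3: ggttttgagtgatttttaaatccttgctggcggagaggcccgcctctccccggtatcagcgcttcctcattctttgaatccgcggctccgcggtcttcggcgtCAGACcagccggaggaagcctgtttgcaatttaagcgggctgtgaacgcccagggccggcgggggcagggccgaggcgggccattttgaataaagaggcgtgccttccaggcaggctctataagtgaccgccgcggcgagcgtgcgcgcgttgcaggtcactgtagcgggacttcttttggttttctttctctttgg

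A set of 5 motifs was searched on both strands of 35116 RefSeq windows of this length, and a match describes letters, not a bound site. GGCGCC, a BMP SMAD motif, lay in 19.2% of all windows, CAGAC, the short SMAD element, in 45.3%, and GTCTAGAC, the palindromic SMAD element, in 0.202%. GAANNTTC, a pair of inverted heat shock factor units, lay in 6.77%, and TATAAA, the TATA box, in 11.5%. The ID1 window held 1 GAANNTTC match and 2 overlapping TATAAA matches, 1 on each strand. The ID3 window held 1 CAGAC match, and the ID2 window held none of the 5. The other members had 8 windows, 3 of them for SMAD7. CAGAC lay in those of IL11 and SKIL and in 2 of SMAD7, GGCGCC in those of SKIL and TGFBI, TATAAA in 1 of SMAD7 and GTCTAGAC in that of SMAD6. The FST window and the third of SMAD7 held none.

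Total counts per library ran from 2401179 to 7710976, with group means of 2872172 at 46 °C, 4130929 at 50 °C, 6769583 at 54 °C, 3800526 with nanoparticles alone and 3386464 in untreated cells. Whether PCR copies were removed is not known here, and depth bounds counting error only. Levels are in CPM, counts scaled to library size with TMM factors, and fold changes are log2 values from an edgeR quasi-likelihood fit over all 20 samples. Whether replicates were separate cultures is not stated in the labels, so errors and p-values cover only the spread among these samples, which could be technical. Of the markers listed as expressed in this line, 6 listed, VIM was at 1341 to 2070 CPM and CD44 at 549.8 to 796 CPM. KRT18 was at 179 to 366 CPM, ANXA1 at 214 to 313 and KRT8 at 72.5 to 178, while EPCAM was only at 0 to 20.1. ESR1 had 22 counts, PGR 9 and CDH1 12 in all 20 libraries. ERBB2, listed with these as low in the line, was at 3.67 to 16.8 CPM. Of the macrophage markers, 6 listed, LYZ and AIF1 were at 0, CD68 was at 3.36 to 17.7 CPM and CSF1R at 0 to 8.85, and the list summed to 3.36 to 26.1 CPM. Of the lymphocyte markers, 6 listed, MS4A1 was at 0 and CD8A at 0 to 6.78 CPM, and the list summed to 0 to 6.78 CPM. The part of other cells in the results was not tested. The summed heat shock genes HSPA1A, HSPA1B, DNAJB1 and HSPH1 averaged 4998 ± 953 CPM at 46 °C, 379 ± 45.5 at 50 °C, 372 ± 33.0 at 54 °C, 388 ± 14.6 with nanoparticles alone and 400.2 ± 74.0 in untreated cells (SD, n = 4).

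At 46 °C the levels of ID1 and ID3 were well below those with nanoparticles alone, and ID2 was higher. ID1 (ENSG00000125968, chr20:31605283-31606515, plus strand, GENCODE v29 on GRCh38) had 38.03, 65.8, 40.3 and 53.7 CPM in the 4 samples at 46 °C, against 126, 150.4, 149 and 155 CPM with nanoparticles alone. No sample at 46 °C reached the lowest sample with nanoparticles alone. The fitted log2 difference of ID1 was −1.55 ± 0.17 (SE, n = 4 each), with a 95% interval of −1.90 to −1.20, and it was −1.41 within replicates 1 and 2 and −1.69 within replicates 3 and 4.

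ID3 (ENSG00000117318, chr1:23557918-23559794, minus strand) had 12.5, 28.0, 18.4 and 22.5 CPM at 46 °C, against 70.5, 77.9, 62.4 and 55.2 CPM with nanoparticles alone. The groups did not overlap here either. The log2 fold change of ID3 was −1.70 ± 0.23, with an interval of −2.17 to −1.24, and it was −1.87 within replicates 1 and 2 and −1.52 within replicates 3 and 4.

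ID2 (ENSG00000115738, chr2:8678845-8684453, plus strand) had 50.2, 83.9, 36.0 and 79.6 CPM at 46 °C, against 9.46, 10.04, 13.9 and 7.11 CPM with nanoparticles alone. Each sample at 46 °C was above every sample with nanoparticles alone, although the 4 differed among themselves by more CPM than those of any other group. Their SD was 23.1 on a mean of 62.4 CPM. Relative to the mean the spread was wider at 54 °C, with an SD of 6.68 on a mean of 10.6 CPM. The log2 fold change of ID2 was 2.63 ± 0.37, with an interval of 1.89 to 3.38, and it was 2.78 within replicates 1 and 2 and 2.47 within replicates 3 and 4. ID2-AS1, annotated on the opposite strand across part of ID2, had a count of 0 in all 20 libraries.

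By the call used for all genes (edgeR, adjusted p under 0.05), 3 of the 8 tested members were called at 46 °C against nanoparticles alone, ID2 higher and ID1 and ID3 lower, where 0.963% of all 12149 tested genes were called. The same 3 members were those without overlap between the groups, as were 6.96% of all tested genes. The rule that listed the members used this contrast, so nothing is read from these shares. In RNA from whole wells, fewer cells that make a transcript and less transcript per cell cannot be told apart.

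The libraries also differed in overall makeup. Mitochondrial mRNAs were lowest at 46 °C, while the summed nuclear long noncoding RNAs were higher in every laser group than in unlit cells. Mitochondrial mRNAs took 4.94% ± 0.524 of counts at 46 °C, 17.01% ± 1.95 at 50 °C, 13.8% ± 0.883 at 54 °C, 11.98% ± 0.630 with nanoparticles alone and 11.1% ± 1.65 in untreated cells. The nuclear long noncoding RNAs MALAT1, NEAT1 and KCNQ1OT1 summed to 3479 ± 558 CPM at 46 °C, 3844 ± 535 at 50 °C and 4362 ± 555 at 54 °C, against 1614 ± 296 with nanoparticles alone and 2165 ± 780 in untreated cells. The part of these shifts in the levels of the ID genes was not tested.

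**Figure D1:**
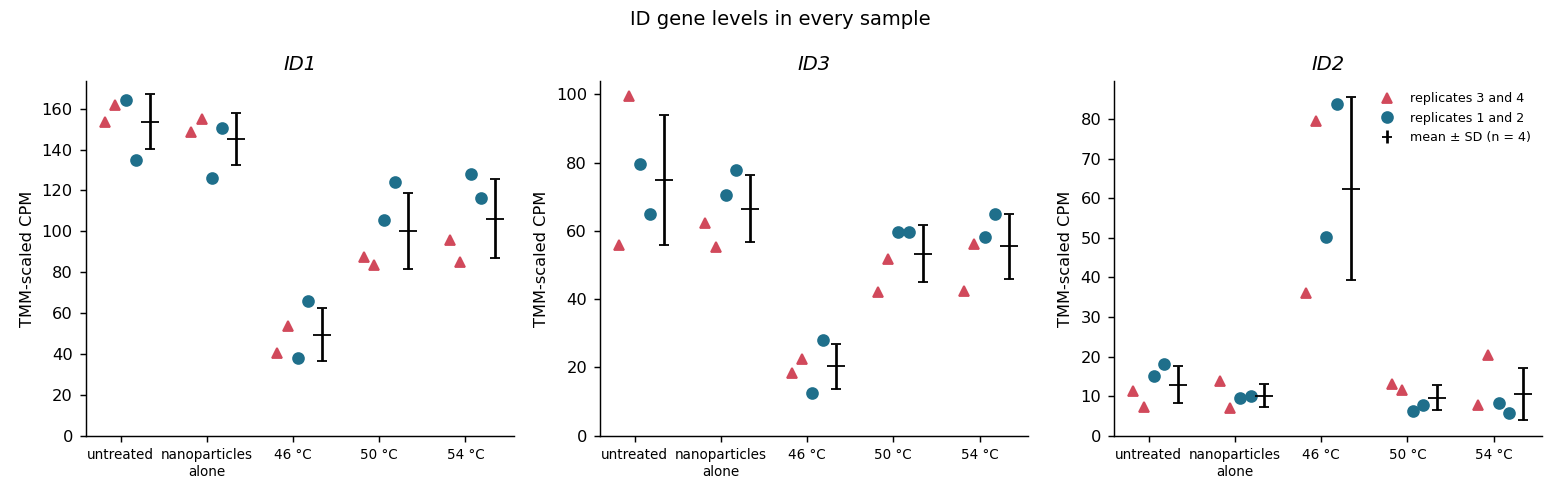
Levels of ID1, ID3 and ID2 in TMM-scaled CPM (linear axes) in every sample of the 5 groups. Triangles are replicates 3 and 4, circles replicates 1 and 2, and bars give the mean ± SD of 4 samples; at 46 °C ID1 averaged 49.4 CPM, ID3 20.3 and ID2 62.4, against 145, 66.5 and 10.1 with nanoparticles alone.

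At 50 °C the 3 ID genes were nearer to the levels with nanoparticles alone. ID1 had 105, 124, 87.4 and 83.5 CPM at 50 °C, which lies above every sample at 46 °C and below every sample with nanoparticles alone. Against 46 °C its log2 fold change was 1.01 ± 0.17 (SE), and against nanoparticles alone −0.53 ± 0.17, with an interval of −0.87 to −0.20. That interval is not adjusted for the number of genes, and ID1 was not called against nanoparticles alone. The difference from nanoparticles alone was −0.27 within replicates 1 and 2 and −0.83 within replicates 3 and 4. Whether its size differs between the replicate pairs was not tested. With a term for the replicate pairs the difference was −0.55 ± 0.15 for ID1. ID3 had 59.6, 59.7, 42.2 and 51.8 CPM at 50 °C, all above the samples at 46 °C, with a log2 fold change of 1.38 ± 0.23 against 46 °C and −0.32 ± 0.22 against nanoparticles alone. ID2 had 6.30, 7.68, 13.1 and 11.5 CPM at 50 °C, all below the samples at 46 °C, and its log2 fold change was −2.70 ± 0.37 against 46 °C. Against nanoparticles alone ID2 differed by −0.06 ± 0.37, with an interval of −0.81 to 0.69.

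For 50 °C against 46 °C, 3 of the 8 tested members were called, ID1 and ID3 higher and ID2 lower, beside 1.19% of all tested genes, and the same limit on reading the share holds. ID2 was not called here by DESeq2, and ID3 was not called within replicates 3 and 4, where their values were still lower and higher at 50 °C. A gene to which DESeq2 gave no adjusted p counted as not called. Against nanoparticles alone 0 of 8 members were called at 50 °C and 0 at 54 °C, beside 1.19% and 0.123% of all tested genes. The count was also 0 for 54 against 50 °C, beside 0.198%, and for nanoparticles alone against untreated cells, beside 0%. With the pair term 2 were called at 50 °C and 1 at 54 °C against nanoparticles alone, beside 2.71% and 0.346%. The same limit holds for these counts.

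At 54 °C ID1 had 128, 116, 95.6 and 84.9 CPM and ID3 58.3, 65.0, 42.3 and 56.2 CPM. Both ranges overlapped those at 50 °C and those with nanoparticles alone. Against 50 °C the log2 fold change was 0.08 ± 0.17 for ID1 and 0.06 ± 0.22 for ID3, and against nanoparticles alone −0.45 ± 0.17 and −0.26 ± 0.21. The ID1 difference from nanoparticles alone was −0.18 within replicates 1 and 2 and −0.75 within replicates 3 and 4. ID2 had 8.27, 5.69, 7.83 and 20.4 CPM at 54 °C, where only replicate 4 lay above the range with nanoparticles alone, and the fold change was 0.06 ± 0.36.

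Nanoparticles alone did not separate from untreated cells in the ID genes. Untreated cells had 164, 135, 153 and 162 CPM of ID1, 79.5, 64.9, 55.8 and 99.5 CPM of ID3, and 15.1, 18.02, 11.4 and 7.33 CPM of ID2. The log2 fold change of nanoparticles alone against untreated cells was −0.08 ± 0.17 for ID1, −0.17 ± 0.22 for ID3 and −0.38 ± 0.37 for ID2, and all 3 ranges overlapped. The interval for ID2, −1.12 to 0.37, leaves room for a fall by more than 1 on the log2 scale. In order of mean level ID1 was lowest at 46 °C, then at 50 and 54 °C, then with nanoparticles alone and in untreated cells. ID3 had the same order, and for both genes the largest log2 step in it was that from 46 to 50 °C. Both genes were chosen with these data in view, so the steps are not read against 0.

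Genes whose profile over the 20 samples lay closest to those of ID1 and ID3 were named by the root mean square difference of gene-centred log2 CPM among 8174 genes with a mean of at least 10 CPM. ID1 and ID3 differed from each other by 0.261, and 0 of the other genes was closer to either. Both were chosen by their levels at 46 °C in these data, so their likeness is partly set by that choice. The nearest to ID1 were PPP1R10 at 0.371, PHF13 at 0.384, SPRED1 at 0.387, SOX12 at 0.394 and ZMYND8 at 0.401, where the median over all genes was 0.722. The nearest to ID3 were MT-ND3 at 0.388, PPP1R10 at 0.460, ARHGAP19 at 0.466, PHF13 at 0.476 and SOX12 at 0.477, with a median of 0.811. PPP1R10, a regulatory subunit of protein phosphatase 1, averaged 59.9 ± 18.6 CPM at 46 °C and 146 ± 34.3 CPM with nanoparticles alone (SD, n = 4 each), a log2 difference of −1.28 ± 0.22 (SE). MT-ND3, a mitochondrially encoded subunit of complex I, belongs to the mitochondrial mRNAs whose share was lowest at 46 °C, and its log2 difference was −1.79 ± 0.15. These genes were chosen for likeness to ID1 and ID3, so no test is given.

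SMAD7, SKIL and SMAD6 showed no like separation of the groups. SMAD7 (ENSG00000101665, chr18:48919853-48952052, minus strand) had 6.39, 9.52, 12.5 and 12.6 CPM at 46 °C, 9.71, 7.18, 11.3 and 10.1 at 50 °C and 4.50, 3.16, 7.67 and 7.14 at 54 °C. With nanoparticles alone it had 5.37, 8.73, 1.78 and 9.32 CPM, and untreated cells had 5.57, 9.01, 7.35 and 5.40 CPM. Every laser group overlapped nanoparticles alone, whose own samples spread the most. The log2 fold change against nanoparticles alone was 0.68 ± 0.52 at 46 °C, 0.58 ± 0.52 at 50 °C and −0.18 ± 0.52 at 54 °C. The interval at 46 °C ran from −0.37 to 1.73, so at this depth neither a rise by 1 nor no change can be set aside for SMAD7.

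SKIL (ENSG00000136603, chr3:170357678-170396835, plus strand) had 29.4, 41.4, 17.98 and 33.8 CPM at 46 °C, 18.4, 19.1, 22.9 and 29.1 at 50 °C, and 30.3, 29.9, 20.2 and 17.6 at 54 °C. It had 24.5, 37.1, 22.5 and 27.2 CPM with nanoparticles alone and 44.6, 24.5, 35.7 and 47.5 CPM in untreated cells. All 5 groups overlapped. Against nanoparticles alone the log2 fold change was 0.14 ± 0.28 at 46 °C, −0.32 ± 0.28 at 50 °C and −0.18 ± 0.28 at 54 °C, and nanoparticles alone differed from untreated cells by −0.45 ± 0.28.

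SMAD6 (ENSG00000137834, chr15:66702228-66782848, plus strand), the inhibitory SMAD tied most closely to BMP signalling, had few reads. Its counts were 1, 4, 3 and 2 at 46 °C, 6, 2, 8 and 0 at 50 °C and 15, 22, 0 and 13 at 54 °C, against 1, 27, 0 and 8 with nanoparticles alone and 7, 11, 0 and 5 in untreated cells. A count of 0 allows up to 0.840 CPM in replicate 4 at 50 °C, 0.490 in replicate 3 at 54 °C, 1.07 in replicate 3 with nanoparticles alone and 1.00 in replicate 3 of untreated cells (3 counts per library). Differences in SMAD6 between groups were not detectable at this depth.

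**Figure D2:**
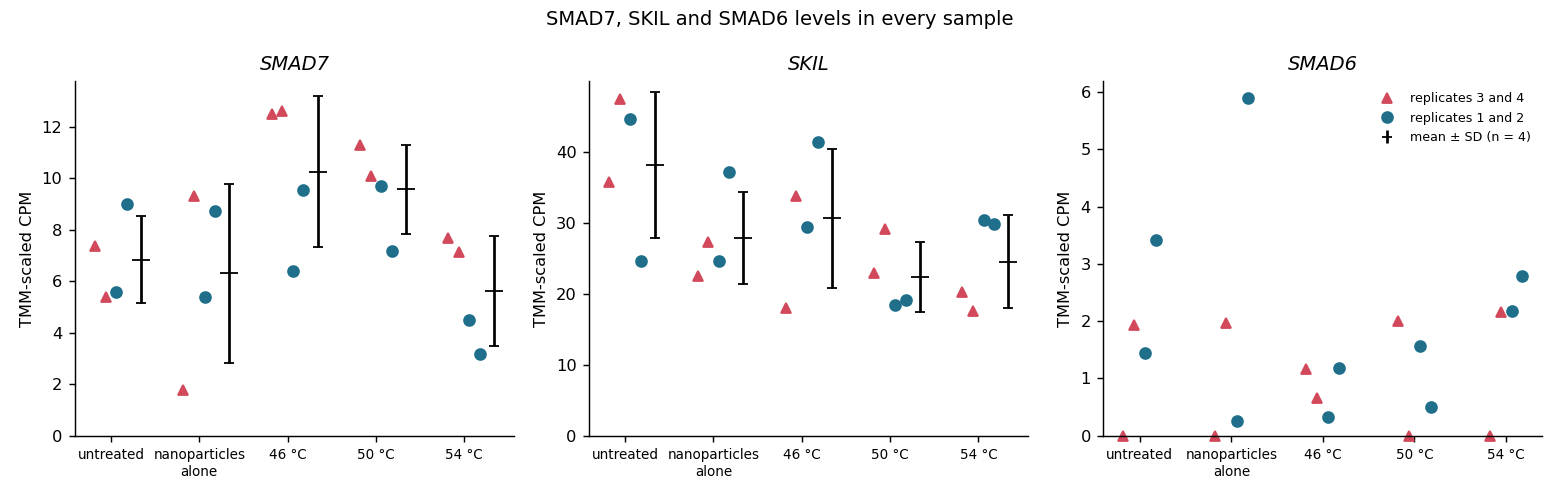
Levels of SMAD7, SKIL and SMAD6 in TMM-scaled CPM (linear axes) in every sample of the 5 groups. Triangles are replicates 3 and 4, circles replicates 1 and 2, and bars the mean ± SD of 4 samples for SMAD7 and SKIL; SMAD6 has points alone, 4 of them at 0, and the groups overlap for all 3 genes.

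The secreted members, IL11, FST and TGFBI, varied more between replicate pairs than between groups. Replicates 3 and 4 were set against replicates 1 and 2 in each group. The labels name no batch, and this division was found in earlier results of these data.

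IL11 (ENSG00000095752, chr19:55364389-55370463, minus strand) had 140.3 and 127 CPM in replicates 3 and 4 at 46 °C, against 275.5 and 321 in replicates 1 and 2. At 50 °C it had 81.1 and 89.3 CPM in replicates 3 and 4, against 237 and 262, and at 54 °C 102 and 114 CPM, against 279 and 254. With nanoparticles alone IL11 had 122 and 211 CPM in replicates 3 and 4, against 401 and 369, and in untreated cells 134 and 146 CPM, against 446 and 432. Replicates 3 and 4 were lower in 5 of 5 groups, and over the whole study their highest value was below the lowest of replicates 1 and 2. The log2 difference of replicates 3 and 4 was −1.37 ± 0.08 (SE), with an interval of −1.53 to −1.21, from means of 127 CPM in replicates 3 and 4 and 328 CPM in replicates 1 and 2 (n = 10 each).

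FST (ENSG00000134363, chr5:53480409-53487134, plus strand) had the same pattern. Replicates 3 and 4 had 64.5 and 101 CPM at 46 °C, 73.6 and 93.0 at 50 °C, 75.1 and 76.3 at 54 °C, 102 and 95.6 with nanoparticles alone and 94.2 and 96.4 in untreated cells. Replicates 1 and 2 had 215 and 221 CPM at 46 °C, 206 and 182 at 50 °C, 199 and 166 at 54 °C, 182.5 and 177 with nanoparticles alone and 200.4 and 228 in untreated cells. The pairs did not overlap in any group, and the log2 fold change was −1.18 ± 0.09, with an interval of −1.36 to −1.01.

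TGFBI (ENSG00000120708, chr5:136028895-136063818, plus strand) ran the other way. Replicates 3 and 4 had 175.5 and 175 CPM at 46 °C, 183 and 173 at 50 °C, 184 and 184 at 54 °C, 144 and 142 with nanoparticles alone and 191 and 216 in untreated cells. Replicates 1 and 2 had 109 and 129 CPM at 46 °C, 156 and 132 at 50 °C, 126 and 110.1 at 54 °C, 134 and 105 with nanoparticles alone and 108 and 171 in untreated cells. Replicates 3 and 4 were higher in 5 of 5 groups, while the ranges over all groups overlapped. The log2 difference was 0.46 ± 0.08, with an interval of 0.30 to 0.63.

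For replicates 3 and 4 against 1 and 2, 3 of the 8 tested members were called, TGFBI higher and IL11 and FST lower, where 8.83% of all tested genes were called. For these 3 the pairs were apart, in the same direction, in each of the 5 groups, as was so for 2.11% of all tested genes. The division was chosen with IL11 in view, and nothing is read from these shares. The other tested members differed by −0.16 ± 0.10 (ID1), 0.18 ± 0.22 (ID2), −0.19 ± 0.13 (ID3), 0.30 ± 0.34 (SMAD7) and −0.14 ± 0.17 (SKIL).

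**Figure D3:**
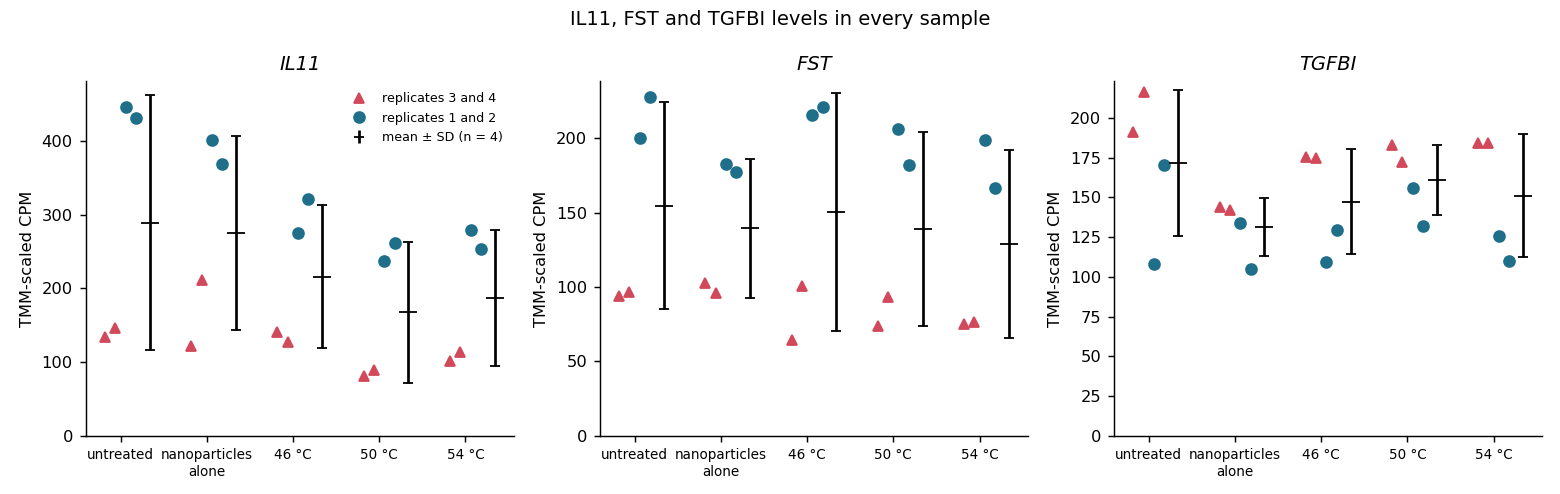
Levels of IL11, FST and TGFBI in TMM-scaled CPM (linear axes) in every sample of the 5 groups. Triangles are replicates 3 and 4, circles replicates 1 and 2, and bars the mean ± SD of 4 samples; in every group the triangles lie below the circles for IL11 and FST and above them for TGFBI.

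The spread between the pairs set the error of the secreted genes between groups. IL11 averaged 216 ± 96.9 CPM at 46 °C, 167 ± 95.5 at 50 °C and 187 ± 92.2 at 54 °C, against 276 ± 132 with nanoparticles alone and 289 ± 173 in untreated cells (SD, n = 4). Against nanoparticles alone its log2 fold change was −0.35 ± 0.56 at 46 °C, −0.72 ± 0.56 at 50 °C and −0.56 ± 0.56 at 54 °C. With a term for the replicate pairs in the fit, the IL11 values were −0.35 ± 0.12, −0.79 ± 0.12 and −0.58 ± 0.12. The term takes out the split that helped to choose IL11, so these narrower errors are a description and are not read against 0. For 50 °C against 46 °C IL11 differed by −0.37 ± 0.56 without the term and −0.45 ± 0.12 with it. In both pairs the fitted IL11 level was lower at each laser temperature than with nanoparticles alone. At 50 °C the difference was −0.62 within replicates 1 and 2 and −0.98 within replicates 3 and 4. Replicates 3 and 4 with nanoparticles alone had 122 and 211 CPM of IL11, and those at 46 °C, with 140.3 and 127 CPM, lay between them. Nanoparticles alone against untreated cells gave −0.07 ± 0.56 for IL11.

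FST did not separate by group with or without the term, at 0.11 ± 0.49, −0.01 ± 0.49 and −0.11 ± 0.48 at 46, 50 and 54 °C against nanoparticles alone. TGFBI differed by 0.17 ± 0.19, 0.30 ± 0.19 and 0.20 ± 0.18 in the same comparisons, and by −0.38 ± 0.19 for nanoparticles alone against untreated cells, where the ranges overlapped.

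**Figure D4:**
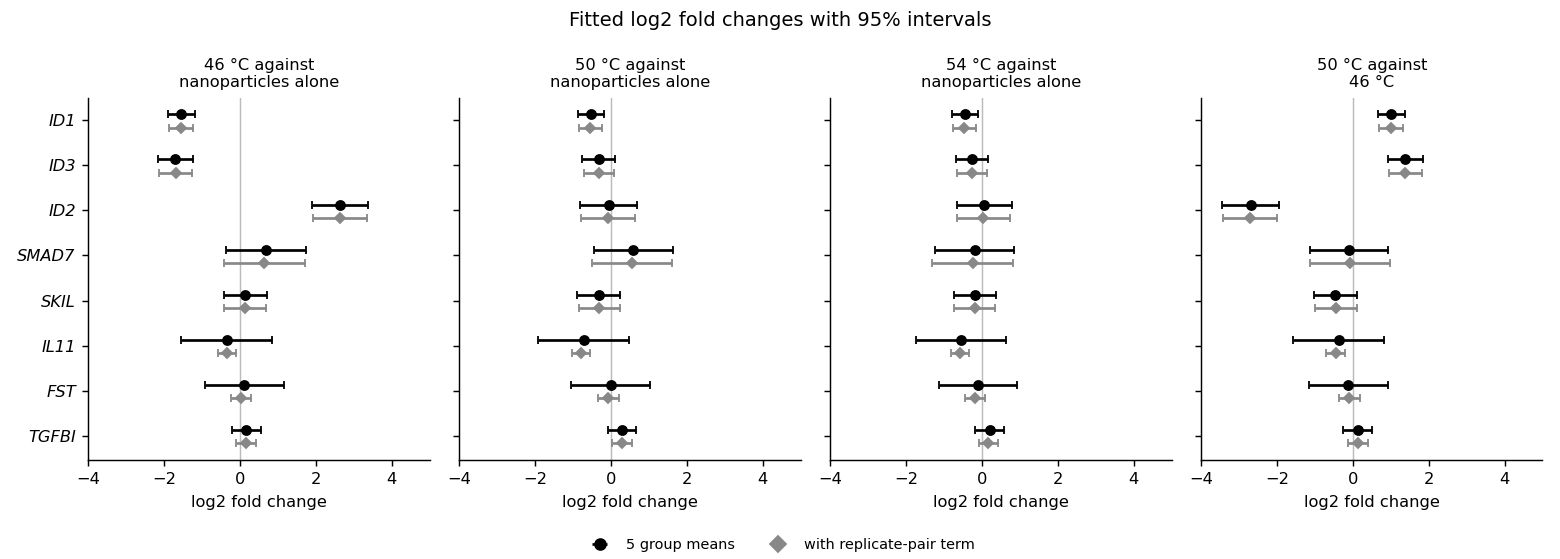
Log2 fold changes of the 8 tested members with 95% intervals in 4 comparisons. Circles are from the fit of 5 group means and diamonds from the fit with a term for the replicate pairs. The circles of ID1, ID3 and ID2 lie furthest from 0 at 46 °C against nanoparticles alone (−1.55, −1.70 and 2.63), as a description only. The intervals of IL11 and FST narrow with the term.

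The rest of the pathway was read from lists of 89 genes, of which 64 were tested, and these lists too were written with earlier results known. Nothing is read from their shares beside all genes, and the p-values of listed genes are no independent support. At 46 °C against nanoparticles alone 5 of 64 were called, 4 higher and 1 lower, beside 0.963% of all tested genes, and all 4 of the higher were other target genes. The median log2 fold change of the 64 was −0.07, against 0.01 over all tested genes. JUNB, an AP-1 factor, had 89.8, 137, 109 and 137 CPM at 46 °C, against 41.2, 48.2, 60.7 and 46.1 CPM with nanoparticles alone, without overlap. Its log2 fold change was 1.27 ± 0.20 (edgeR quasi-likelihood test, adjusted p = 1.52e-05), and it was called under each of the 16 alternatives run. The alternatives reuse the same libraries, so this is no independent sign of stability. KLF10, a TGF-beta-inducible zinc finger factor, rose by 1.36 ± 0.30 (edgeR, adjusted p = 0.00741), with 52.7 CPM at 46 °C and 20.7 CPM with nanoparticles alone on average. CDKN1A, which encodes the cyclin-dependent kinase inhibitor p21, rose by 0.83 ± 0.19 (edgeR, adjusted p = 0.0103), and CCN2, a matricellular growth factor, by 0.74 ± 0.18 (edgeR, adjusted p = 0.0277).

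The lower call was TGFBR2, the type II TGF-beta receptor, with 26.5, 25.3, 29.7 and 27.5 CPM at 46 °C, against 45.2, 50.9, 52.4 and 65.5 CPM with nanoparticles alone. The groups did not overlap, and the log2 fold change was −0.97 ± 0.26 (edgeR, adjusted p = 0.0476). TGFBR2 lost its call when any 1 of the 8 libraries was left out, and the count of 5 fell to 2 without replicate 3 at 46 °C or without replicate 1 or 2 with nanoparticles alone. It fell to 3 without replicate 2 or 4 at 46 °C or replicate 3 with nanoparticles alone. CCN2 lost its call within replicates 1 and 2, and without replicate 3 or 4 at 46 °C or replicate 1 or 2 with nanoparticles alone. KLF10 lost it within replicates 3 and 4, and without replicate 2 at 46 °C or replicate 1 or 2 with nanoparticles alone. CDKN1A lost it within either pair, and without replicate 3 of either group. Of the ligands, 7 tested, the receptor-activated and common SMADs, 6 tested, the inhibitors, 19 tested, and the E proteins, 2 tested, none was called by edgeR at 46 °C against nanoparticles alone, with medians of 0.17, −0.39, −0.24 and −0.46. Over all lists 19 genes had an unadjusted p under 0.05, and DESeq2 called 7.

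With the term for the replicate pairs 9 of 64 were called, 5 higher and 4 lower, beside 2.16% of all tested genes in that fit. The division behind the term was found in these data. Adjusted p-values from fits with the term are therefore a description in every comparison. BMP4, a BMP ligand not called without the term, was then among them at −0.83 ± 0.13 on the log2 scale (edgeR, adjusted p = 4.15e-06). It had 126, 118, 96.5 and 121 CPM at 46 °C, against 254, 247, 175 and 166 CPM with nanoparticles alone, and the groups did not overlap. GDF15, a distant member of the family also known as a stress cytokine, was called higher at 1.74 ± 0.33 with the term (edgeR, adjusted p = 0.000307).

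At 50 °C against nanoparticles alone 2 of 64 were called, both lower and both inhibitors, where 1.19% of all tested genes were called. STRAP, which binds TGF-beta receptors with SMAD7, had 31.2, 26.7, 38.9 and 47.9 CPM at 50 °C, against 71.8, 81.0, 71.4 and 79.5 CPM with nanoparticles alone. No sample overlapped, and the log2 fold change was −1.07 ± 0.21 (edgeR, adjusted p = 0.00185). PPM1A, a phosphatase that acts on SMAD2 and SMAD3, fell by 1.08 on the log2 scale (SE 0.25, edgeR, adjusted p = 0.0141), with 19.7 CPM at 50 °C and 41.3 CPM with nanoparticles alone. Both calls were lost within replicates 3 and 4, and PPM1A also lost its call without replicate 1 or 2 at 50 °C or replicate 2 with nanoparticles alone, which left 1 call. With the pair term 7 genes were called, 3 higher and 4 lower, beside 2.71% of all tested genes, BMP4 among the lower at −0.84 ± 0.13 (edgeR, adjusted p = 4.16e-06). BMP4 was not called here without the term.

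For 50 °C against 46 °C 3 of 64 were called, all lower and all other target genes, beside 1.19% of all tested genes. JUNB averaged 55.5 CPM at 50 °C and 118 CPM at 46 °C (log2 fold change −1.09 ± 0.19, edgeR, adjusted p = 0.000259), and KLF10 17.6 CPM at 50 °C and 52.7 CPM at 46 °C (−1.58 ± 0.31, edgeR, adjusted p = 0.00102). SNAI1, a repressor of E-cadherin, averaged 4.25 CPM at 50 °C and 17.8 CPM at 46 °C (−2.06 ± 0.56, edgeR, adjusted p = 0.0494), and it kept its call under 6 of 16 alternatives and under 1 of the 8 that left out a library. JUNB and KLF10 were thus called higher at 46 °C than with nanoparticles alone and lower at 50 °C than at 46 °C. In this step JUNB lost its call within replicates 1 and 2. KLF10 was not called with DESeq2, where it lacked an adjusted p rather than having one over 0.05.

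No pathway gene was called by edgeR at 54 °C against nanoparticles alone, where 0.123% of all tested genes were called, 8 pathway genes had an unadjusted p under 0.05 and DESeq2 called 0. With the pair term, which called 0.346% of all tested genes, 1 was called, BMP4, which was lower at 54 °C by −0.64 ± 0.13 on the log2 scale (edgeR, adjusted p = 0.00307). For 54 °C against 50 °C the edgeR count was also 0, beside 0.198% of all tested genes, with 5 pathway genes at an unadjusted p under 0.05 and 1 called by DESeq2. The pair term gave 1 call there, STRAP, beside 0.568% of all tested genes. For nanoparticles alone against untreated cells it was 0, beside 0% of all tested genes, with 2 pathway genes at an unadjusted p under 0.05 and 0 called by DESeq2.

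Between replicate pairs 10 of 64 pathway genes were called, 7 higher and 3 lower in replicates 3 and 4, beside 8.83% of all tested genes. The division was found in these data, so the adjusted p-values that follow are a description. ANGPTL4, a secreted regulator of lipoprotein lipase and a TGF-beta target in breast cancer cells, rose by 1.96 ± 0.21 (edgeR, adjusted p = 2.15e-11), with means of 31.2 CPM in replicates 3 and 4 and 7.92 CPM in replicates 1 and 2. Also called higher were GDF15 (1.15 ± 0.20, adjusted p = 2.14e-05), TAGLN (1.12 ± 0.30, adjusted p = 0.00688), SMURF2 (0.58 ± 0.08, adjusted p = 9.82e-08), CCN2 (0.47 ± 0.08, adjusted p = 1.02e-05) and PMEPA1 (0.36 ± 0.07, adjusted p = 2.91e-05). SMURF2 is a ubiquitin ligase that works with SMAD7, and PMEPA1 a membrane protein that sequesters SMADs.

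The lower calls were the ligands BMP4 (−0.54 ± 0.08, edgeR, adjusted p = 7.12e-07) and TGFB2 (−0.40 ± 0.09, adjusted p = 0.000495) and the type I receptor gene TGFBR1 (−0.52 ± 0.16, adjusted p = 0.0261). TGFB2 did not overlap between the pairs in 5 of 5 groups. TGFBR1 kept its call under 19 of 24 alternatives and lost it without replicate 4 at 46 °C, 2 or 3 at 50 °C, or 1 or 4 with nanoparticles alone. IL11 and FST were lower in replicates 3 and 4 while CCN2 and TGFBI were higher. The division was chosen with IL11 in view, so nothing about the pathway is read from these directions or adjusted p-values.

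**Figure D5:**
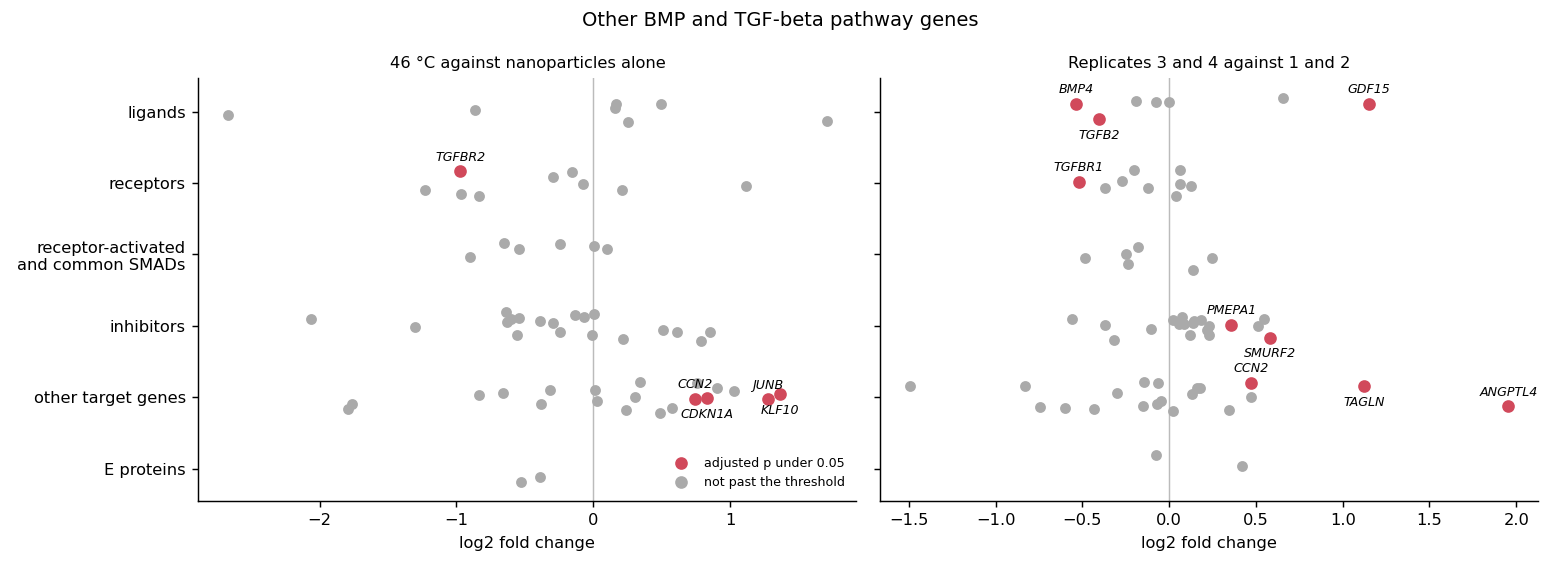
Log2 fold changes of tested pathway genes, by role, at 46 °C against nanoparticles alone (left) and in replicates 3 and 4 against 1 and 2 (right). Each point is a gene, spread vertically at random within its role, and red points with names passed an adjusted p under 0.05: 4 higher and 1 lower on the left, and on the right from TGFBR1 (−0.52) and BMP4 (−0.54) among the lower to ANGPTL4 (1.96) among the higher.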

How the data were processed

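The samples were 3′ mRNA libraries (QuantSeq FWD) of MDA-MB-231 cells, 4 per group. The authors deposited estimated counts per gene. The submitters' processing notes name STAR, Salmon and GRCh38, while their versions, the annotation, the strand setting and any use of molecular identifiers were not given in the sources used here. Between 1.74% and 2.90% of a library's values were not whole, and all were rounded before testing.

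Counts were fitted with edgeR 4.0.16 in R 4.3.3 (TMM, filter at a count of 10 and a total of 15, robust quasi-likelihood, 5 group means, 20 samples), with Benjamini-Hochberg adjustment over 12149 genes and a threshold of 0.05. A second fit added a term for replicates 3 and 4 against 1 and 2. The prior count for log2 CPM was 2. Each laser temperature was set against nanoparticles alone, these against untreated cells, 50 against 46 °C, 54 against 50 °C, and the replicate pairs against each other. The 54 °C group was not set against 46 °C. Alternatives were DESeq2 1.42.0, other scalings, no filter, a replicate block, the pair term, each pair alone and each library left out. The fits were tested on simulated data. Library totals were 2401179 to 7710976 counts, which bound counting error only.

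The members and lists were chosen with earlier results of these data known. The text names all 9 members, the called pathway genes, at most 8 a comparison and direction, and the 5 genes most like ID1 and ID3. Positions are from GENCODE v29, which holds 34616 of the 36601 gene identifiers, and promoters from RefSeq. All 9 members had a promoter window. Some listed genes enter the counts but are not reported here.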

Additional observations from a re-analysis of the deposited data

How the results depend on the processing

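The ID genes at 46 °C against nanoparticles alone kept their sign under 16 of 16 alternatives, at −1.72 to −1.41 for ID1, 2.46 to 2.82 for ID2 and −1.90 to −1.52 for ID3, as did IL11, FST and TGFBI between the pairs under 24 of 24. These genes were chosen with these contrasts in view, so this is no independent sign of stability. Deviations of same-numbered samples of different groups had correlations of 0.0222 to 0.0660 (mean 0.0421) over 40 pairs of samples, 0 over 0.1. The mean was 0.0410 for the other number of the same replicate pair (40 pairs of samples). It was −0.0415 across replicate pairs (80 pairs of samples). Samples with the same number were thus hardly more alike than others of their replicate pair, so the numbers are not taken as pairing. Counts over all genes are given next for 46 °C, 50 °C and 54 °C against nanoparticles alone, 50 against 46 °C and 54 against 50 °C, in that order. They were 117, 144, 15, 145 and 24 in the fit reported, 269, 337, 46, 353 and 67 with the replicate block, 263, 329, 42, 341 and 69 with the pair term, and 191, 288, 36, 260 and 58 with DESeq2. The same counts for pathway genes were 5, 2, 0, 3 and 0 as reported, 9, 7, 1, 4 and 1 with the block, 9, 7, 1, 4 and 1 with the pair term, and 7, 5, 0, 1 and 1 with DESeq2. The DESeq2 counts leave out genes to which it gave no adjusted p. Scaling by library totals gave 279 calls at 50 °C against nanoparticles alone, 17.9% of them higher against 44.4% as reported, 420 for 50 against 46 °C, 10.95% higher against 48.97%, and 38 for 54 against 50 °C, 57.9% higher against 29.2%. It moved the median of all genes to −0.10 and −0.18 in the first 2 of these, and 5 pathway genes were then called at 50 °C against nanoparticles alone. Without a filter 38 genes were called at 54 °C against nanoparticles alone, 1 of them in the pathway, and 4 pathway genes at 50 °C. Within replicates 1 and 2 the counts were 250 at 46 °C against nanoparticles alone and 224 for 50 against 46 °C. Within replicates 3 and 4 they were 64 at 46 °C, 61 at 50 °C and 81 for 50 against 46 °C, with 2 pathway genes at 46 °C and 0 at 50 °C. For nanoparticles alone against untreated cells the count was 0 as reported, 2 without a filter, 3 within replicates 1 and 2 and 2 within replicates 3 and 4. With each library left out in turn, counts over all genes ran from 81 to 128 at 46 °C, from 81 (without replicate 1 at 50 °C) to 124 at 50 °C, with 94 without replicate 2 at 50 °C and 87 without replicate 2 with nanoparticles alone, from 8 (without replicate 1 or 3 at 54 °C) to 18 at 54 °C, with 9 without replicate 2 or 4 at 54 °C or with nanoparticles alone, from 95 (without replicate 2 at 46 °C) to 137 for 50 against 46 °C, from 18 to 29 for 54 against 50 °C, from 0 to 1 for nanoparticles alone against untreated cells and from 928 to 1046 between the pairs, reported as 1073. The pathway counts ran from 2 to 5 at 46 °C, from 1 to 3 at 50 °C, from 2 to 3 for 50 against 46 °C and from 9 to 11 between the pairs. The causes of these shifts were not tested. SMAD6 had too few counts for the test.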
